A study of Drosophila melanogaster with 2 samples.

Results

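MBD-R2 peaks at internal alternative promoters were autosomal peaks whose summit lay within 500 bp of an annotated transcription start site (TSS) of a protein-coding gene but over 500 bp from the 5′-most TSS of every protein-coding gene. Of 6157 autosomal peaks in the main list, 478 met this rule (7.76%, Wilson 95% interval 7.12 to 8.46). The whole list holds 7544 peaks with those on the X chromosome. The gene of the nearest TSS was taken as the host, which gave 392 host genes. The conservative list gave 304 such peaks, and the list of replicate 1 alone gave 167. The peaks came from chromatin immunoprecipitation and sequencing (ChIP-seq) of whole Drosophila melanogaster embryos, collected from 0 to 24 h of age. The flies were transgenic for MBD-R2 fused to eGFP, and the antibody was directed against GFP, so the tagged protein was measured, in all embryonic tissues together. The labels number 2 biological replicates of this 1 group, and control libraries were not analysed here. There was thus no comparison between conditions and no p-value, and intervals on shares cover counting error only.

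MBD-R2 belongs to the NSL (non-specific lethal) complex, in which MOF acetylates histones, and which is known from the promoters of broadly expressed genes. Many fly genes have several promoters. A downstream promoter lies in an intron or exon of the longer transcripts of its gene, and its use changes the first exon, the 5′ untranslated region or the N terminus of the protein.

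Sequences of internal starts are shown because motifs known from promoters of broadly expressed genes, and motifs known from regulated promoters, were both present among them. Each is the 100 bases that end at the TSS, 5′ to 3′ on the gene's strand, from the RefSeq copy of the dm6 assembly. Capitals mark the DNA replication-related element (DRE, TATCGATA), the core of promoter motif 1 (GTCACACT), an E-box (CAGCTG) or a GAGA element (GAGAG), on either strand. The DRE is known as the site of the factor DREF, and motif 1 as the site of M1BP. The strongest internal peaks are represented by PNPase and Rtnl1, with none of these motifs in the stretch shown, and by gish, REPTOR, CG34310 and papi. A DRE stood at aux and pit, and the motif 1 core at Cdk12 and mtd.
PNPase, internal start, chr3R:31404740-31404839, strand -: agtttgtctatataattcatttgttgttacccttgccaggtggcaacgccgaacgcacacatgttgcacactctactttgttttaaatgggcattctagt
gish, internal start, chr3R:16280790-16280889, strand +: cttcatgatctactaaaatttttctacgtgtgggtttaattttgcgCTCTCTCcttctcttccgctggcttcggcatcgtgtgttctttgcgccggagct
Rtnl1, internal start, chr2L:4997381-4997480, strand -: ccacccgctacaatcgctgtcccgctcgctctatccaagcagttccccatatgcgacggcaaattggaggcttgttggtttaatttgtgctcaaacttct
REPTOR, internal start, chr3R:24572495-24572594, strand -: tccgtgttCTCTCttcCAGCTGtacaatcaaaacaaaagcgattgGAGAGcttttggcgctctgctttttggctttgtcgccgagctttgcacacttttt
CG34310, internal start, chr2L:6673865-6673964, strand +: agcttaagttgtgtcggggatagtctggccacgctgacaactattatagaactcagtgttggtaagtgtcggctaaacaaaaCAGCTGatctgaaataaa
papi, internal start, chr2L:2221990-2222089, strand +: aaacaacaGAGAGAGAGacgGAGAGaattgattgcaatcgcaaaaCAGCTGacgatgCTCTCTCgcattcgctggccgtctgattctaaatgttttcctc
aux, internal start, chr3R:4220887-4220986, strand +: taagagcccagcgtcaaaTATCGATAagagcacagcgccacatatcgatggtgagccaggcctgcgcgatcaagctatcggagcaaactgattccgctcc
pit, internal start, chr3R:22035618-22035717, strand +: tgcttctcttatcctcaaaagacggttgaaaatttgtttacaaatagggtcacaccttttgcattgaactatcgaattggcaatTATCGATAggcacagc
Cdk12, internal start, chr3L:21517088-21517187, strand +: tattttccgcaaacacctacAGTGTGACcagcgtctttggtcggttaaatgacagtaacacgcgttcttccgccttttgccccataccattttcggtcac
mtd, internal start, chr3R:5283379-5283478, strand -: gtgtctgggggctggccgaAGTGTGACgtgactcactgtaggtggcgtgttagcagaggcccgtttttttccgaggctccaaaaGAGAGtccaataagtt

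The same stretch before the 5′-most start held a GAGA element in gish and none of the 4 motifs in the other 9 of these 10 genes. Most internal starts shown were picked for holding a motif and the 5′-most starts were not, so this contrast is set by the choice. Of the 9 genes without a motif there, papi, aux and Cdk12 are printed for comparison with their internal starts above, chosen after their letters were seen.
papi, 5′-most start, chr2L:2220649-2220748, strand +: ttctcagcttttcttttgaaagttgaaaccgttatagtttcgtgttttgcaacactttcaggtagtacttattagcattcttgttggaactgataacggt
aux, 5′-most start, chr3R:4211684-4211783, strand +: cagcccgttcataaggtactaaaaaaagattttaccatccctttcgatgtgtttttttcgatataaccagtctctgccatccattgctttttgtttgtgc
Cdk12, 5′-most start, chr3L:21516207-21516306, strand +: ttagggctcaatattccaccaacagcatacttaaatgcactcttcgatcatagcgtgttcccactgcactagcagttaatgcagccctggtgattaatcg

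The strongest internal peaks exceeded the peak at the gene's own 5′-most start wherever both were found. Values below are the signal of a peak as the authors' peak caller gave it. Its scaling is not stated, so it serves to rank peaks within a list, and replicate values come from each replicate's own ranked list, which is not normalised for depth. PNPase, a polynucleotide phosphorylase, had the highest signal of all members, 1097 at its internal start against 64.8 at its 5′-most start, 712 bp upstream. In replicate 1 the internal start had 299 and the 5′-most start 33.5, and in replicate 2 they had 798 and 33.2. Both replicates thus placed the internal peak far above the upstream one. The peak covered chr3R:31404408-31404821 on dm6, in an intron of a longer transcript, and 3 of 4 annotated transcripts start within 500 bp of its summit.

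A similar order was seen at genes with other roles. Nup44A, a nucleoporin, had 748 at its internal start, with 326 in replicate 1 and 436 in replicate 2, against 49.0 at its 5′-most start, with 15.5 and 27.9. The same peak lies near an internal start of the neighbouring gene ACC. At gish, which encodes a casein kinase, the internal start had 720, with 191 and 530 in replicates 1 and 2, against 64.5 at the 5′-most start, with 28.6 and 32.1. The gish start lies 8437 bp downstream, in an intron and beyond the first start codon. PAN3, a subunit of a deadenylase, had 592 at its internal start, with 145 and 429 in the replicates, against 70.8 at its 5′-most start. The plexus gene px, known for its role in wing vein patterning, had 738 at the internal start, with 210 and 527, against 278 at a 5′-most start 47966 bp away. In each of these genes the internal start was higher in both replicates.

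For other strong members the main list held no peak at the 5′-most start. CG1888 had an internal signal of 724, with 212 in replicate 1 and 513 in replicate 2. Fkbp14, a peptidyl-prolyl isomerase, had 721, with 210 and 515. At primo-1, a low molecular weight protein tyrosine phosphatase, the internal start had 700, with 238 and 457. At the 5′-most start, CG1888 had a weak ranked peak in replicate 2 (28.7), primo-1 had one in both (23.5 and 16.4), and Fkbp14 had none in either. None of these is in the replicates' own thresholded lists. The internal peak of Trp1, a component of protein translocation into the endoplasmic reticulum, had 491, with 103 and 384 in the replicates. Its 5′-most start had 40.3 in replicate 1, in that replicate's own thresholded list, and a ranked peak of 25.1 in replicate 2. The internal start of Pgk, a glycolytic enzyme gene, had 373, with 152 and 229, against ranked peaks of 12.5 and 46.1 at the 5′-most start.

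Among the 20 hosts with the strongest internal peak found in both replicates' own thresholded lists, 11 had a 5′-most peak in the main list and 9 did not. The internal signal was the higher one in all 11. Where a replicate's ranked list had a peak at the 5′-most start, the internal start was higher in 16 of 16 of these hosts in replicate 1 and in 19 of 19 in replicate 2. The hosts were taken in order of internal signal, so this direction is partly set by the choice. The internal signals ran over 77.5 to 326 in replicate 1 and 229 to 798 in replicate 2, and replicate 2 was higher in all 20. The internal TSS lay in an intron in 15 of them, and the summit was upstream of the TSS in 19. The rest of the 20 include Lpin, a phosphatidate phosphatase, with 461 at the internal start and 269 at the 5′-most start, and papi, a Tudor-domain protein of the piRNA pathway, with 385 and 96.1. The chaperone gene mrj had 372 and 154.

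**Figure D1:**
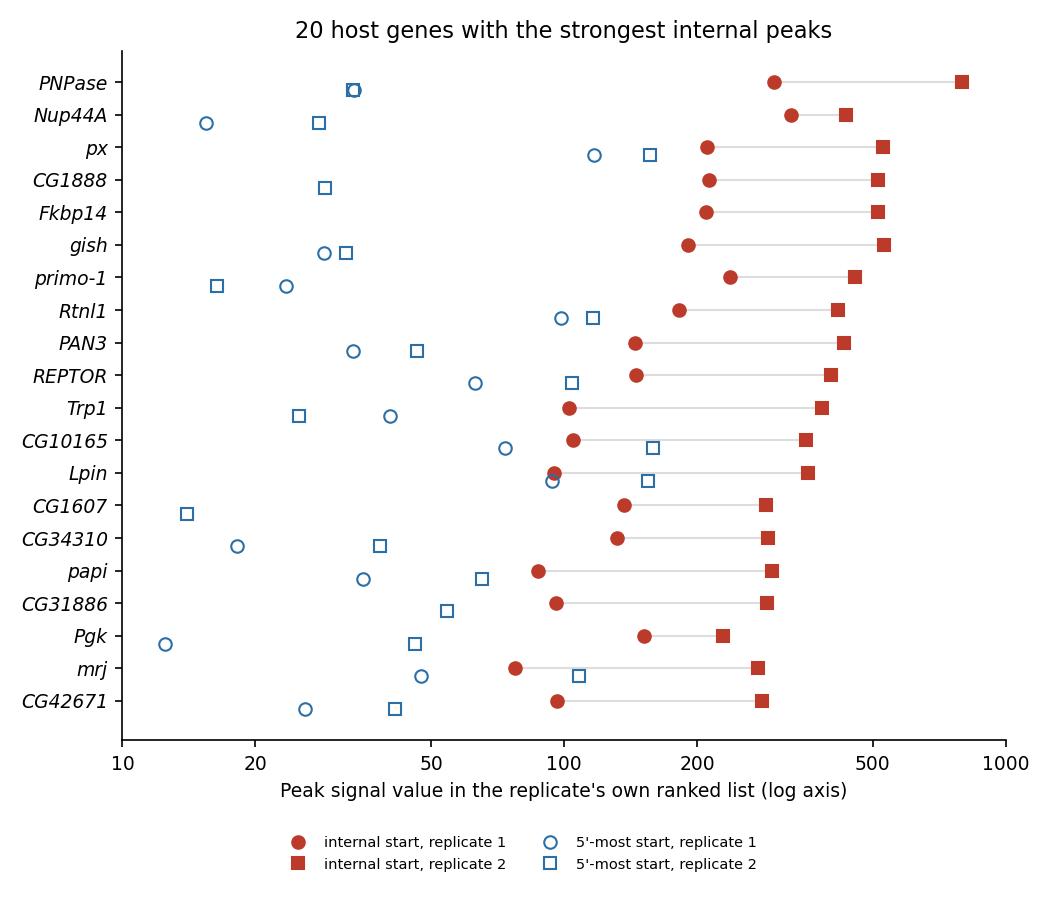
Peak signal of the 20 hosts with the strongest internal peaks, in each replicate's own ranked list, on a log axis. Filled red symbols are the internal start and open blue symbols the 5′-most start, circles replicate 1 and squares replicate 2. A missing open symbol means no ranked peak there. The filled symbols lie to the right of the open ones of the same replicate, and at Lpin in replicate 1 they nearly coincide (94.9 and 93.8).

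Across all hosts, the 5′-most start had its own main-list peak in 201 of 392 genes (51.3%, 95% interval 46.3 to 56.2), and 191 had none. Over all 11749 autosomal protein-coding genes this share was 41.5%, and over the 1645 with an annotated TSS more than 500 bp from every 5′-most TSS it was 40.2%. Of 1276 such genes with no internal peak, 37.3% had a 5′-most peak (34.7 to 39.99). The hosts thus had a 5′-most peak more often than either set, by a margin larger than the counting intervals. The sets are not quite alike, as 29 hosts have no TSS over 500 bp from every 5′-most TSS and lie outside the 1645. Among the 363 hosts within the 1645 genes, 182 had a 5′-most peak and 181 had none. This split was not made in the other settings below. Genes are not replicates, and no test was made. The same order was seen in the lists of single replicates. Taken from replicate 1 alone, 52 of 152 hosts had a 5′-most peak (34.2%, 27.1 to 42.1) against 25.2% (23.1 to 27.3) of genes with an internal start, intervals that overlap slightly. From replicate 2 alone, 204 of 411 did (49.6%, 44.8 to 54.4) against 39.5% (37.1 to 41.8). At a stricter IDR of 0.001, 35.1% of hosts had one against 27.8% of genes with an internal start. The conservative list gave 41.5% of hosts against 31.4%. Windows of 250 and 1000 bp gave 40.2% of hosts against 33.3%, and 61.0% against 48.6%, so the share depended on list and window and was higher in the hosts in each of these settings.

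Most of the 191 hosts without a main-list peak at the 5′-most start had a peak there in the full ranking of 100373 peaks. How often other 5′-most starts without a main-list peak had one was not counted, so this is not read as a trait of hosts. In 137 of the 191 hosts (71.7%) the full ranking held a peak, with a median signal of 34.6. Only at REPTOR and spen did that peak reach an IDR of 0.01 or below, where IDR is the irreproducible discovery rate. REPTOR, a transcription factor held back by TOR signalling, had 553 at its internal start against a ranked peak of 176 at its 5′-most start, with 145 and 401 against 62.8 and 104.4 in replicates 1 and 2. That ranked peak meets the threshold but is not in the main list, so REPTOR and spen are counted as without one by the list alone. The replicates' own thresholded lists had a 5′-most peak in 7 (replicate 1) and 14 (replicate 2) of the 191, also without a share over other genes beside it.

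In 35 of the 191 hosts no list held a peak within 500 bp of the 5′-most start. How often this was so in other genes was not counted. The 35 hosts include aux, the auxilin of clathrin uncoating, with an internal signal of 322 and with 144 and 177 in replicates 1 and 2. The nesprin gene Msp300 had 221, with 41.1 and 173, and the formin gene capu had 175. The metabolic genes Pfk, with 151, and Ogdh, with 104.8, were also among them. So were the regulators Eip75B, an ecdysone-induced nuclear receptor, with 145, and lola, a BTB transcription factor, with 104.6. Eip75B had 17.1 in replicate 1 and 122 in replicate 2, so its signal rested mostly on replicate 2.

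In the 201 hosts with both peaks the internal one was on the whole slightly weaker. The internal signal was higher in 81 genes (40.3%, 33.8 to 47.2). The log2 ratio of internal over 5′-most signal had a median of -0.25 and quartiles of -1.20 and 0.49. Internal signal was at least 2-fold higher in 35 genes, and 5′-most signal in 57. In ranked lists the median was -0.58 over 177 genes in replicate 1 and -0.24 over 195 in replicate 2, which kept the sign, and 127 of 174 genes had the same direction in both replicates (72.99%). With peaks at an IDR of 0.001 or below only, the median turned to 0.10. The internal signal itself had a median of 105.3 in hosts with a 5′-most peak and 106 in hosts without. The 5′-most peaks of the 201 hosts had a median signal of 131, against 178 over all 4876 genes with one. Of these 5′-most peaks, 98 of 201 (48.8%) also lay within 500 bp of another gene's 5′-most TSS, against 52.3% over all such genes, a value within the counting interval of 41.9 to 55.6.

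**Figure D2:**
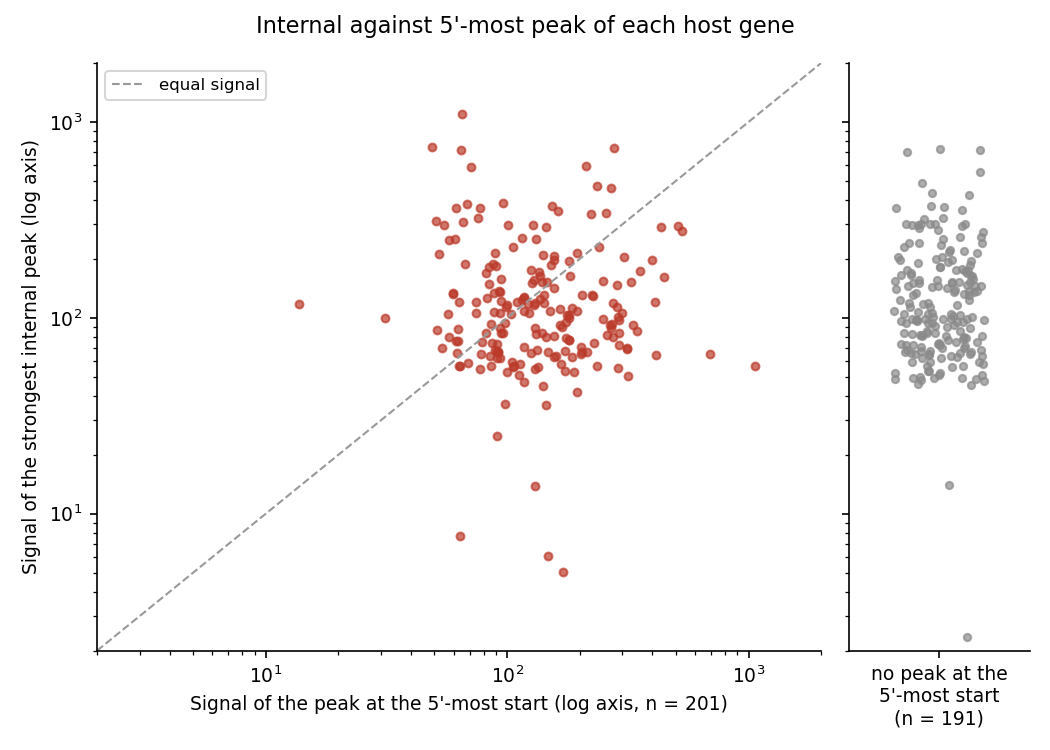
Main-list signal of the strongest internal peak (vertical) against the strongest peak at the 5′-most start (horizontal) for 201 host genes, both on log axes, with the 191 hosts that have no 5′-most peak in the right panel, spread sideways for visibility. The dashed line marks equal signal, and 81 genes lie above it. The gray points span a range of internal signal like that of the red ones.

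Whether the 5′-most start had a peak varied with the distance between the starts, which had a median of 2318 bp. A 5′-most peak was found in 65 of 106 hosts with starts up to 1000 bp apart (61.3%, 51.8 to 70.0), in 79 of 155 from there to 5000 bp (51.0%) and in 40 of 85 up to 20000 bp (47.1%). Beyond that it was found in 17 of 46 (37.0%, 24.5 to 51.4). The intervals of the closest and the farthest class barely failed to overlap (from 51.8 against up to 51.4), and those of neighbouring classes overlapped. Other genes with an internal start were not divided by distance, so the trend is not shown to be particular to hosts. The longest distances were in Ptp61F, a tyrosine phosphatase of JAK/STAT signalling (124658 bp), Svil, a supervillin (116883 bp), mtgo (112081 bp), the zinc-finger gene jing (111762 bp) and the receptor phosphatase gene Ptp99A (101670 bp). Of these, Svil alone had a 5′-most peak in the main list, with 276 at the internal start against 530 there. Svil had 68.5 and 202 at the internal start in replicates 1 and 2, against 208 and 309 at the 5′-most start, so both replicates placed the internal peak lower.

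**Figure D3:**
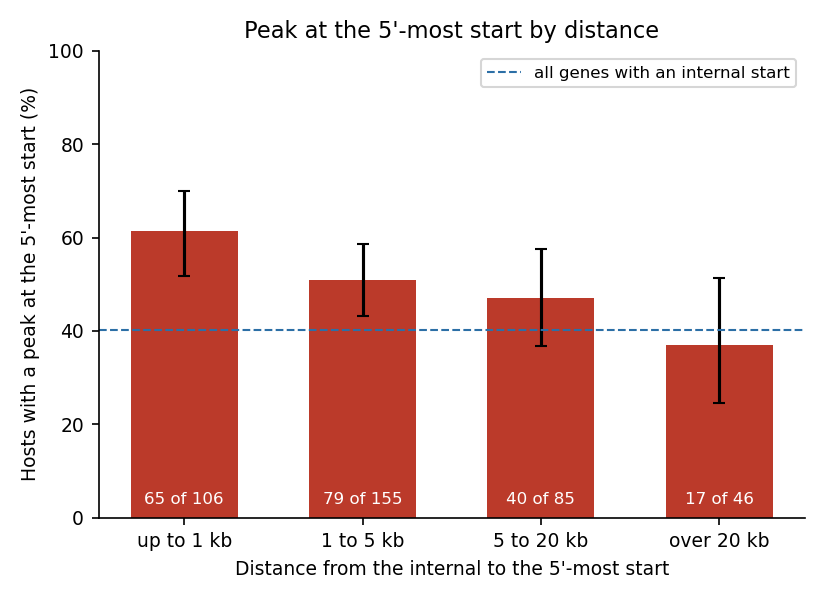
Percentage of host genes whose 5′-most start had a main-list peak, by distance between the internal and the 5′-most start. Bars carry Wilson 95% intervals and the counts, and the dashed line is the 40.2% of all genes with an internal start, not divided by distance. The bars fall from 61.3% for the closest starts to 37.0% for the farthest.

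An internal start had a listed MBD-R2 peak less often than a 5′-most one. Of 2727 internal TSSs, 503 had a main-list summit within 500 bp (18.4%). Of the 1645 genes with such a TSS, 363 were hosts (22.1%), and 661 had a peak at the 5′-most start (40.2%). Internal TSSs lie over 500 bp from every 5′-most TSS by definition. By contrast, 52.3% of all genes with a 5′-most peak had one that also lay within 500 bp of another gene's 5′-most TSS. The part of such shared peaks in the difference was not tested. The remaining 29 hosts have no TSS over 500 bp from every 5′-most TSS and entered through the position of the summit. Of the hosts, 321 had 1 internal peak, 59 had 2 and 12 had more. By annotation the internal TSS lay in an intron of longer transcripts in 377 members (78.9%), in an untranslated exon in 90 and in a coding exon in 11. It lay upstream of every start codon of the gene in 271 members (56.7%), with a median distance to the 5′-most TSS of 1411 bp, against 5740 bp in the other members.

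In the 12 genes with 3 or more internal peaks, several peaks did not always mean several annotated starts. In 4 of them (Asator, CAP, Ogdh and Rtnl1) each peak had a start of its own, over 100 bp from the next, and in 8 some peaks shared a start, as at tun, where all 3 did. In 7 genes (M7BP, Nadk1a, Ogdh, SNF4Agamma, eEF1alpha1, p130CAS and tun) 1 of the peaks lay within 500 bp of a stronger summit. Rtnl1, a reticulon that shapes the endoplasmic reticulum, had internal peaks of 594, 288, 113 and 85.0 against 213 at its 5′-most start. The strongest had 182 and 417 in replicates 1 and 2, and the next 117 and 170, against 98.2 and 116 at the 5′-most start. The strongest internal peak of Rtnl1 was thus at the most downstream of the 4 starts. Asator, a tau-tubulin kinase gene on chromosome 4, had 4 internal peaks of 60.4 to 96.9 and no peak at the 5′-most start in any list. SNF4Agamma, a regulatory subunit of AMP-activated kinase, had 4 peaks of 6.21 to 67.7 at 3 starts, against 90.6 at its 5′-most start. The E2F partner Dp had 295 and 127 at the same internal start and 76.0 at another, against 512 at its 5′-most start. The others were Nadk1a (strongest 151), CAP (150), tun (145), mtd (113), Ogdh (104.8), eEF1alpha1 (104.3), M7BP (70.1) and p130CAS (67.8). Of these, eEF1alpha1, a translation elongation factor, had a 5′-most peak of nearly equal signal (104.2), and the rest had none in the main list.

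Across chromosomes, members made up 6.40% (3R) to 9.07% (2R) of the peaks of the large autosomal arms. On the small chromosome 4 they were 9 of 36 peaks (25%, 13.8 to 41.1), at ci, Asator, CG11076, unc-13, gw and Ank. Their signals were low to moderate, 49.2 to 97.9, and only gw had a 5′-most peak. Counted by genes with an internal start, 5 of 27 on chromosome 4 were hosts (18.5%, 8.18 to 36.7), against 21.6% to 23.2% on the large arms, so the genes of chromosome 4 were hosts about as often within counting error. The 4 peaks of Asator share a gene, so they are not independent.

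Host genes were compared with 7 lists of known function. In each list, the count is of autosomal members with an internal start, set beside 363 of 1645 over all such genes (22.1%). Counts of hosts with a 5′-most peak stand beside 201 of 392 over all hosts (51.3%). Among transcription factors with a BTB domain and others, 12 of 27 were hosts (44.4%, 27.6 to 62.7), and 4 of the 12 had a 5′-most peak. The corepressor gro had the highest signal, 352 at its internal start against 163 at its 5′-most start. Its replicates disagreed on the order, with 70.8 against 77.6 in replicate 1 and 269 against 89.5 in replicate 2. Trl, which encodes the GAGA factor itself, had 193, with 38.4 and 153 in the replicates, and jing had 152, both without a 5′-most peak. The other hosts of that list include lola, cnc, mam, Stat92E, pnt, ttk and Abd-B.

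Cytoskeleton and muscle genes were hosts in 10 of 27 cases, 5 with a 5′-most peak, led by the formin Fhos (296, with 104.1 and 191 in replicates 1 and 2), Msp300 (221) and capu (175). RNA-binding proteins were hosts in 10 of 27, 4 with a 5′-most peak, led by the splicing repressor heph (158), the poly(A)-binding protein pAbp (154) and larp (153). Kinases, GTPases and their regulators were hosts in 10 of 34, 5 with a 5′-most peak, led by gish, the receptor phosphatase Lar (299, with 152 in each replicate) and the exchange factor trio (203). Nuclear receptors and ecdysone response genes were hosts in 4 of 15, 2 with a 5′-most peak. They were Eip75B, Hnf4 (105.4), the ecdysone receptor gene EcR (63.8) and ERR (41.9). Genes of synapses, channels and adhesion were hosts in 3 of 21, namely Nrx-1 (113), unc-13 (58.0) and nrv2 (48.7). In the list of ribosome, proteasome and translation factors only 6 of 227 genes had an internal start, and 3 were hosts, eEF1alpha1 (104.3), the cap-binding eIF4E1 (66.7) and eEF1alpha2 (62.0). In that list 181 of 227 genes had a peak at the 5′-most start (79.7%), against 41.5% of all 11749 autosomal protein-coding genes. The members and the lists were chosen with results known, and only the interval of the transcription factor list lay wholly above 22.1%.

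Members were weaker on the whole than 5′-most peaks and stronger than the rest. Their median signal was 94.7 (quartiles 66.0 and 153), against 150 (92.7 and 231) for 4145 peaks at 5′-most starts and 78.2 (59.6 and 115.1) for 1534 peaks elsewhere. In the top 10% of autosomal peaks by signal were 32 members (6.69%), against 12.98% of 5′-most peaks. Of the 478, 48 had a stronger summit within 500 bp, and these include all 22 with a signal under 20. Other autosomal peaks were not counted in this way, so this is not read as a trait of members. The weakest members were CG7029 (4.30), the replication gene chif (3.39), eEF1alpha1 (3.17), the junction protein gene pyd (2.89) and CG7394 (2.35), each of them a secondary summit.

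The replicates held members unequally. A peak of replicate 1's own thresholded list covered the summit of 165 members (34.5%, 30.4 to 38.9), against 66.7% of 5′-most peaks and 17.7% of peaks elsewhere. In replicate 2 the share was 81.4% (389 members), against 87.9% and 73.7%. Both lists held 154 members (32.2%) and neither held 78 (16.3%). Over all autosomal peaks these shares were 48.8% and 12.96%. Before thresholding, ranked lists held 416 members in replicate 1 (87.0%) and 464 in replicate 2 (97.1%). Of all autosomal peaks the ranked lists held 89.8% in replicate 1 and 97.3% in replicate 2. The difference from 5′-most peaks in replicate 1 remained at like strength. With a main-list signal of 100 to 200, replicate 1 held 69 of 144 members (47.9%, 39.9 to 56.0), against 73.8% (71.6 to 75.9) of 5′-most peaks and 31.3% (26.8 to 36.1) of peaks elsewhere. Above 200 it held 94.9%, 97.4% and 88.6%. In replicate 2 members were not below 5′-most peaks at 100 to 200, with 142 of 144 (98.6%, 95.1 to 99.6) against 94.99% (93.8 to 96.0). At 50 to 100 the shares were 74.1% (67.7 to 79.7) and 70.7% (67.6 to 73.6). Under 50 replicate 2 did show the order of replicate 1. It held 17 of 51 members (33.3%, 22.0 to 47.0), 52.4% (46.9 to 57.8) of 5′-most peaks and 27.7% of peaks elsewhere. The intervals of members and 5′-most peaks there just overlap. Replicate 2 signal over replicate 1 signal had a median of 1.93 for members, against 1.64 for 5′-most peaks and 2.22 elsewhere. Replicate 1 had 4113 thresholded peaks and replicate 2 had 7542, and the part of depth in these shares was not tested, because depth is unknown.

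**Figure D4:**
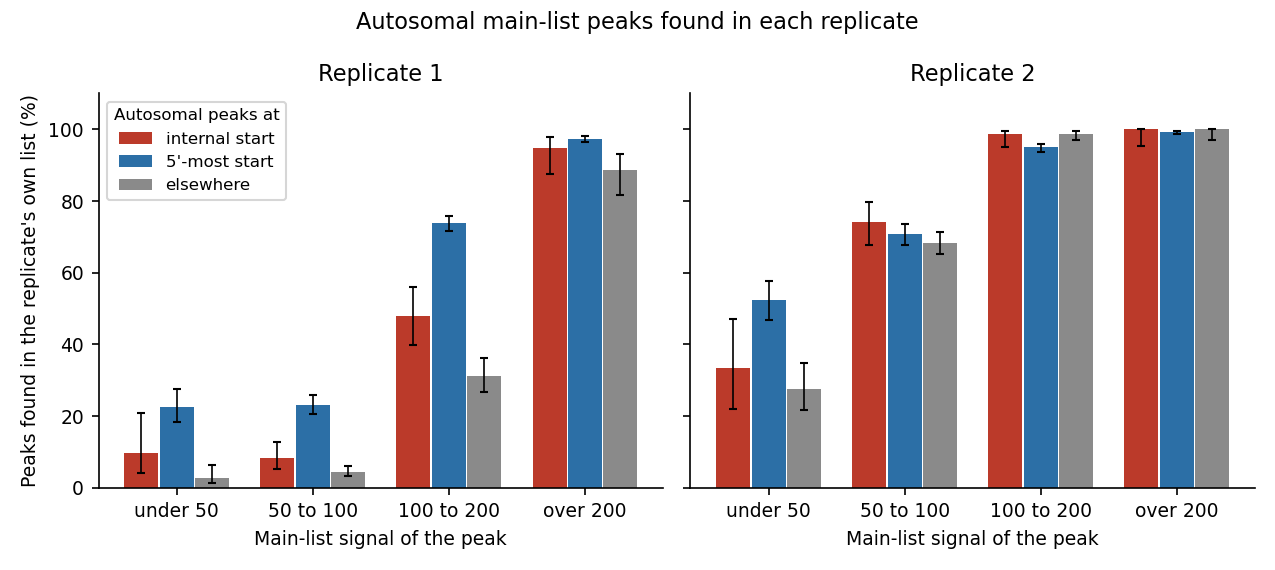
Percentage of autosomal main-list peaks whose summit lies in a peak of the replicate's own thresholded list, by main-list signal, for replicate 1 (left) and replicate 2 (right). Bars are members (red), 5′-most peaks (blue) and peaks elsewhere (gray), with Wilson 95% intervals. At 100 to 200 in replicate 1 the members (47.9%) lie between 5′-most peaks (73.8%) and peaks elsewhere (31.3%).

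Summits of members lay less tightly on the TSS than summits of 5′-most peaks. The distance to the nearest coding TSS had a median of 143 bp, against 51 bp for 5′-most peaks, and 39.1% were within 100 bp, against 72.1%. A summit within 500 bp of any 5′-most TSS cannot be a member, so the rule itself bears on these distances. In 156 of 478 members (32.6%) a 5′-most TSS lay within 1000 bp. The part of the rule in the difference was not tested. The signed offset of members had a median of -54.5 bp, and 302 of 478 summits were upstream of the internal start (63.2%, 58.8 to 67.4). This offset was not computed for 5′-most peaks or peaks elsewhere, so it is not read as a trait of members. In 11 members the nearest TSS of any kind belonged to a non-coding gene. The members just inside the limit of 500 bp from an internal TSS were CG9171 (488 bp, signal 71.1), DopEcR (487 bp, 86.0) and CG42671 (487 bp, 368), and just outside the same distance from any coding TSS, which for CG12607 and omd is a 5′-most one, were peaks near CG12607 (501 bp, 85.5), omd (504 bp, 93.5) and TP53INP (505 bp, 60.8). At the limit from the 5′-most TSS, PNUTS (503 bp, 99.2), CG9849 (505 bp, 256) and CG5787 (507 bp, 241) were just inside, and peaks of Su(var)2-10 (500 bp, 89.9), Cht2 (494 bp, 59.7) and Miro (492 bp, 267) were just outside. For the Miro peak, that 5′-most TSS belongs to the gene spas.

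The internal starts with a peak differed in sequence from bound 5′-most starts. For the 439 distinct internal starts of members, both strands of the window from position -150 to 50 around the start were searched for the 4 motifs capitalised above. GAGA stood at 199 (45.3%, 40.7 to 50.01), against 17.9% (16.9 to 19.01) of 4876 bound 5′-most starts and 23.1% of all 11749. At 2173 internal starts without a peak, which are the 2224 such TSSs after merging those of a gene within 100 bp, it stood at 36.3% (34.3 to 38.3), and at 343 such starts in the same hosts at 38.2% (33.2 to 43.4), an interval that overlaps that of the members. GAGA was at 38.6% (31.2 to 46.5) of the starts of members in replicate 1's own list, near the internal starts without a peak, and at 49.0% (43.2 to 54.7) of the others. Within the hosts, GAGA stood at 28.4% of 5′-most starts with a peak and at 39.3% of those without. The initiator (TCAGT or TCATT in the sense orientation, at most 5 bp from the TSS) was at 18.2% (14.9 to 22.1), against 4.96% of bound 5′-most starts and 17.3% of internal starts without a peak.

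The DRE and the motif 1 core were rare at members' starts, though more frequent there than at internal starts without a peak. The DRE was at 18 members' starts (4.10%, 2.61 to 6.39), against 0.552% (0.316 to 0.963) of internal starts without a peak, 15.5% (14.5 to 16.5) of bound 5′-most starts and 7.45% of all 5′-most starts. The motif 1 core was at 16 (3.64%, 2.26 to 5.84), against 0.598%, 12.3% and 5.85%. Both were thus more frequent than at internal starts without a peak and rarer than at bound 5′-most starts. In all motif comparisons here, internal starts without a peak lie over 500 bp from every 5′-most TSS. Members' starts need not, and in 25 of 478 members the start was at most 500 bp from the host's 5′-most TSS. The part of such starts in the differences was not tested. At the hosts' own 5′-most starts, the DRE was at 10.4% (6.94 to 15.4) of those with a peak and 2.09% of those without. The motif 1 core was at 9.95% (6.53 to 14.9) and 2.62%. The DRE share was 7.84% (4.54 to 13.2) at starts of members in replicate 1's own list and 2.10% (0.965 to 4.50) at the others, intervals that barely fail to overlap. The E-box was at 20.3% (16.8 to 24.3), near the 22.7% of bound 5′-most starts and above the 11.4% (10.1 to 12.8) of internal starts without a peak. TATAAA from 40 to 15 bp upstream was at 1.82%, against 1.70% of bound and 12.8% of unbound 5′-most starts. Among the 20 strongest hosts, 12 had GAGA, 7 an E-box and none a DRE or motif 1 core. A match is a description of the letters, not a site.

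**Figure D5:**
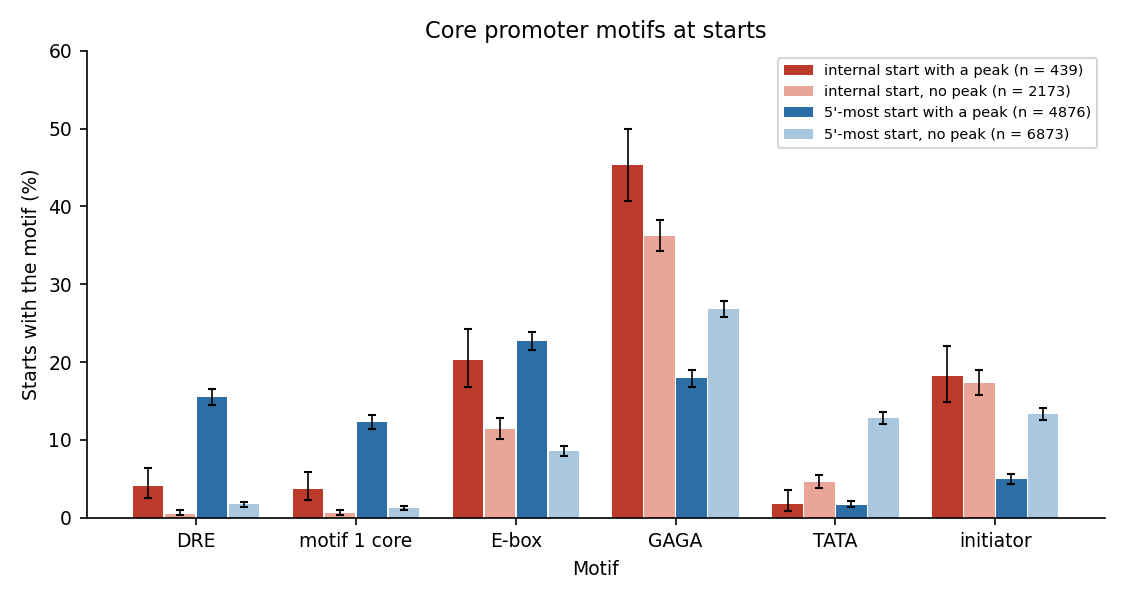
Percentage of starts with each motif, with Wilson 95% intervals, at internal starts with a peak (dark red, n = 439) and without (light red, n = 2173), and at 5′-most starts with a peak (dark blue, n = 4876) and without (light blue, n = 6873). GAGA is highest at internal starts with a peak (45.3%), and the DRE is highest at 5′-most starts with a peak (15.5%).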

How the data were processed

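Peak lists of MBD-R2-eGFP ChIP-seq were analysed, from 2 biological replicates of 1 group. The lists are on dm6, per the labels, and peaks were read from the authors' files. Aligner, peak caller, versions and depth: not given in the sources used here. A signal value deposited by the authors is of unstated scale. The authors' score is a scaled IDR, with 830 as its smallest value in the main list, and the −log10 of the IDR in the deposited ranking served for a stricter threshold of 0.001. In the ranking, 8 columns with values of the compared lists carry no sample name and were not used. TSSs came from Ensembl release 115 on the same assembly, after a check of chromosome lengths, and sequence from the RefSeq copy. A replicate held a member where one of its peaks covered the member's summit. Shares carry Wilson 95% intervals. The code was tested on simulated peaks. Members, gene lists and the rule for named genes were chosen with earlier results of these data known. The rule named the 20 strongest hosts in both replicates' lists, the 5 strongest with and without a 5′-most peak, hosts with 3 or more members, the 3 strongest hosts per gene list, the 5 weakest members, those at the limits and the 5 farthest internal starts. Other genes, such as those without any 5′-most peak, were chosen after their values were seen. In the gene lists 4 symbols were matched through synonyms. The 10 starts with printed motif sequences avoid arm 2R. Alternatives were other lists, windows, annotation and filters. Python 3.11.15, pandas 2.3.3, SciPy 1.17.1 and matplotlib 3.10.9 were used.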

Additional observations from a re-analysis of the deposited data

How the results depend on the processing

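The number of members was 478, and it was 304 in the conservative list and 231 at an IDR of at most 0.001. With either replicate left out (the other's own list used) it ran from 167 to 507. The share of hosts with a 5′-most peak was 51.3%, and it was 41.5% in the conservative list, 35.1% at the stricter IDR, 40.2% with a window of 250 bp and 61.0% with 1000 bp. It was 34.2% to 49.6% with a replicate left out. The median log2 ratio of internal over 5′-most signal turned from -0.25 to 0.10 at the stricter IDR and ran from -0.40 to -0.03 with a replicate left out. The cause was not tested. The median signal was 131 (conservative), 157 (stricter IDR), 101 (250 bp), 87.2 (1000 bp) and, an alternative chosen after seeing the data, 102 without summits beside a stronger one. It was 61.3 to 67.9 in the single replicates' own lists, whose scale differs. The share of members in replicate 1's list was 28.5% with 50% reciprocal overlap, 87.0% in its ranked list and 64.1% at the stricter IDR, and in replicate 2 these were 75.1%, 97.1% and 95.7%. GAGA fell to 40.5% (36.1 to 45.2) within 100 bp each side of the TSS, against 17.8% of bound 5′-most starts. Internal starts without a peak had 32.7% (30.7 to 34.7) there, and those of the same hosts 33.8% (29.0 to 39.0). Around the summit it fell to 34.2% (29.9 to 38.7), against 18.5% at 5′-most peaks and 27.4% (25.3 to 29.7) at peaks elsewhere. The initiator was at 2.51% around the summit, a window not centred on the TSS. RefSeq TSSs gave the same 478 members, 351 were kept with 250 bp and 322 with 1000 bp. Leaving out internal TSSs within 1000 bp of the 5′-most one, also chosen after seeing the data, gave 355 members in 290 hosts, of which 47.6% had a 5′-most peak.

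No paired analysis was possible because there is 1 group. Peak signal has no stated scale, and depth is unknown, so a start without a peak means no listed peak and not absence of MBD-R2. Whole embryos mix tissues, so fewer cells using a start and less binding per cell cannot be told apart. Annotated starts were not checked for use in embryos.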
